A study of Mus musculus with 6 samples.

Results

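The matrix metalloproteinases (Mmp), the membrane-bound Adam proteases, the secreted Adamts proteases, the Adamts-like (Adamtsl) proteins and the tissue inhibitors of metalloproteinases (Timp) were read in cultured mouse vascular smooth muscle cells after knockdown of Pfkfb3, which encodes an enzyme that drives glycolysis. Members were chosen by gene symbol alone: Mmp, Adam, Adamts, Adamtsl or Timp followed by a number and, for some, a letter. The rule found 84 of the 24970 rows of the deposited table, namely 23 Mmp, 33 Adam, 19 Adamts, 5 Adamtsl and 4 Timp genes. Messenger RNA was measured by RNA sequencing and given as FPKM, a level per transcript length and per library size.

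The cells carried 20 nM of a small interfering RNA for 48 h. Of the 6 libraries, 3 came from cells given siPFKFB3, which targets Pfkfb3, and 3 from cells given siScrambled, a control RNA. All cells were primary cultures of C57BL/6 male mice, isolated by collagenase digestion (12 mice aged 6 weeks, as the protocol is read here), and both groups grew in α-MEM with 10% FBS, under a treatment label of normal growth medium. The titles name PFKFB3 for each knockdown library, whereas the genotype label reads PFKFB3 knockdown for replicate 1, PFKFB4 knockdown for replicate 2 and PFKFB5 knockdown for replicate 3; the siScrambled libraries are labelled WT. The groups follow the titles. No label ties a library to its own animal; a p-value here therefore reflects how far these libraries scatter, and that scatter may be technical.

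Mmps and Adamts proteases cut collagens, proteoglycans and other matrix proteins, and Adams with an active site cut the outer parts off membrane proteins such as growth factor precursors and adhesion molecules. All of them use a zinc ion for catalysis and are made as inactive precursors. Timps block the active site of most Mmps and of some Adams and Adamts proteases. In the vessel wall, smooth muscle cells are a main source of these enzymes and inhibitors, which are known for their part in the remodelling of the medial matrix and the movement of cells through it.

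Pfkfb3 was at 1.92, 1.65 and 1.77 FPKM in siPFKFB3 cells, against 4.03, 4.02 and 3.86 FPKM in siScrambled cells. Each knockdown library lay below each control library (log2 fold change -0.84 ± 0.07 SE, adjusted p = 2.66e-05, limma; exact two-sided permutation p = 0.1, the smallest that 3 against 3 allows). Pfkfb1, Pfkfb2 and Pfkfb4 did not pass the test, with log2 differences of -0.07, -0.04 and -0.12 (adjusted p = 0.537, 0.718 and 0.417). Libraries correlated at 0.993 to 0.995 within groups and 0.979 to 0.983 between them (Pearson's r of log2 values across genes). In each library 11189 to 11247 genes were at 1 FPKM or above, and the number of reads behind the values is unknown. All fold changes here are on the log2(FPKM + 1) scale, siPFKFB3 relative to siScrambled, which understates the change of genes near 1 FPKM. A change was called at an adjusted p below 0.05 in limma over the 11240 genes whose mean reached 1 FPKM.

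The cultures carried smooth muscle and fibroblast messages. Beside the marker counts that follow, 15.8% of all genes tested rose and 20.5% fell. All 9 smooth muscle markers had a mean of at least 1 FPKM, and 3 rose (Acta2, Cnn1 and Synpo2) and none fell, with a median log2 change of -0.08 over the list. Myh11, Tagln, Smtn, Myocd and Des were lower in each siPFKFB3 library without passing the test. The summed level was 2471 to 2542 FPKM in siPFKFB3 cells and 2130 to 2229 FPKM in siScrambled cells, a difference carried by Acta2, which averaged 1700 ± 29.9 FPKM in siPFKFB3 cells and 1340 ± 39.0 FPKM in siScrambled cells (SD, n = 3 each). All 9 adventitial fibroblast markers were tested too, of which 2 rose and 5 fell, with sums of 1268 to 1303 FPKM in siPFKFB3 cells and 1344 to 1371 FPKM in siScrambled cells. Of 6 mesothelial markers only Upk3b was tested and it fell (sums 2.45 to 2.66 FPKM in siPFKFB3 cells, 6.31 to 7.40 FPKM in siScrambled cells), and 4 of 5 tested chondrocyte markers rose (sums 199 to 227 FPKM in siPFKFB3 cells, 101 to 107 FPKM in siScrambled cells). None of the 9 endothelial markers reached a mean of 1 FPKM (sums 1.05 to 2.04 FPKM in siPFKFB3 cells, 1.45 to 1.69 FPKM in siScrambled cells), and Cldn5 was at 0 in 5 of 6 libraries. Of 10 macrophage and leukocyte markers 3 were tested and none was called; Aif1 and Cd3e were at 0 in every library, and the sums of 16.7 to 17.1 FPKM in siPFKFB3 cells and 15.1 to 15.7 FPKM in siScrambled cells were mostly Lyz2. Fewer cells of a type and less RNA per cell cannot be told apart in bulk samples, and the part of these shifts in the changes of the proteases was not tested.

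Among the proteases and inhibitors, 36 members passed the level filter, 18 of them were called, and the largest changes ran in both directions. Adamts12, Adam12 and Timp3 rose by at least 0.5 on the log2 scale, and Adamts1 fell by 0.50. In all, 6 members rose, 12 fell and 18 did not pass the test. The called share was 50% of the tested members, against 36.3% of all genes tested. Members that rose made up 16.7%, against 15.8% of all genes, and members that fell 33.3%, against 20.5%. For 23 of the 36 members, or 63.9%, each library of one group lay beyond all of the other, against 49.5% of all genes tested. The median log2 change was -0.10 over the members and -0.02 over all genes. Together the members held 0.887, 0.929 and 0.920% of all FPKM in siPFKFB3 cells, against 0.891, 0.906 and 0.905% in siScrambled cells, so the groups overlapped in this total.

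**Figure D1:**
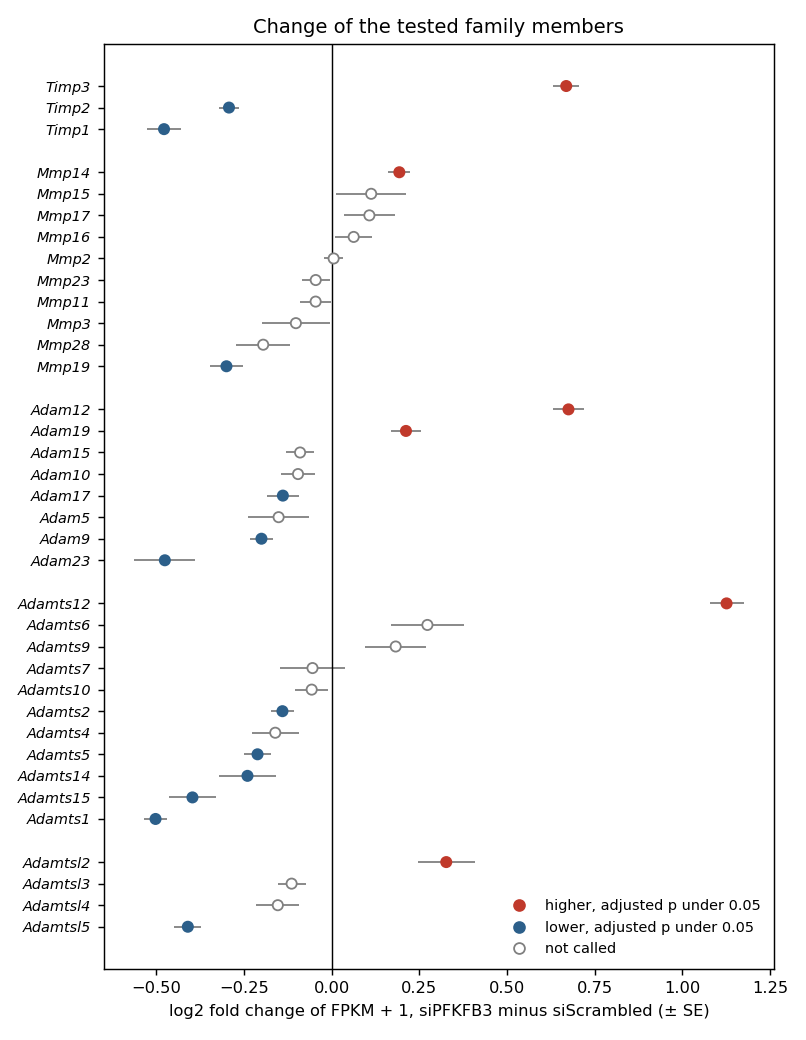
Log2 fold change of the 36 tested members, siPFKFB3 relative to siScrambled, grouped by family; points are fitted values, bars are standard errors, and filled points are the 18 called members. Adamts12, Adam12 and Timp3 stand at the upper end and Adamts1, Timp1 and Adam23 at the lower end, while 8 of the 10 Mmps were not called.

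The inhibitors changed in opposite directions. Timp3 rose, Timp1 and Timp2 fell, and they ranked 64, 137 and 52 by mean level among the 11240 genes. Timp3 (ENSMUSG00000020044, chromosome 10, 86300372 to 86349506, plus strand, GRCm38) is an inhibitor that binds to the matrix and acts on Adamts proteases and Adam17 as well as on Mmps. It was at 681.8, 715.5 and 731.6 FPKM in siPFKFB3 cells, against 436.4, 465.0 and 436.6 FPKM in siScrambled cells. All knockdown libraries were far above all control libraries, at 159% of the control mean (log2 fold change 0.67 ± 0.04, adjusted p = 1.79e-06). Its exons share 1733 of 8144 bases with Syn3 on the opposite strand, but Syn3 averaged 0.0709 FPKM in siPFKFB3 cells and 0.0317 FPKM in siScrambled cells.

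Timp1 (ENSMUSG00000001131, chromosome X, 20870166 to 20874735, plus strand, within an intron of Syn1) is a secreted inhibitor whose transcription is known to answer to cytokines and growth factors. It was at 288.6, 261.9 and 285.0 FPKM in siPFKFB3 cells, against 405.6, 364.2 and 395.4 FPKM in siScrambled cells. The highest knockdown library lay below the lowest control library, and the mean was 71.7% of control (log2 fold change -0.48 ± 0.05, adjusted p = 0.0001). Timp2 (chromosome 11, 118301069 to 118355740, minus strand), which inhibits Mmps and also helps membrane-type Mmp14 to activate the precursor of Mmp2, was at 593.0, 622.5 and 597.8 FPKM in siPFKFB3 cells, against 738.6, 744.1 and 739.1 FPKM in siScrambled cells. The groups were again separate (log2 fold change -0.29 ± 0.03, adjusted p = 4.15e-05). Timp4 stayed far below 1 FPKM, at 0.0538, 0.0355 and 0.0278 FPKM in siPFKFB3 cells and 0.188, 0.189 and 0.202 FPKM in siScrambled cells. The Timp4 groups did not overlap, but values this low were left out of the test; with no filter on level its adjusted p was 0.00588.

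The summed inhibitor level did not separate the groups, but its make-up did. The 4 Timps together were at 1563, 1600 and 1614 FPKM in siPFKFB3 cells, against 1581, 1573 and 1571 FPKM in siScrambled cells, and the groups overlapped. Within that sum Timp3 took 43.6, 44.7 and 45.3% in siPFKFB3 cells, against 27.6, 29.5 and 27.8% in siScrambled cells. Timp2 took 37.9, 38.9 and 37.0% in siPFKFB3 cells, against 46.7, 47.3 and 47.0% in siScrambled cells. Timp3 was thus the leading inhibitor by level in each knockdown library and Timp2 in each control library.

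**Figure D2:**
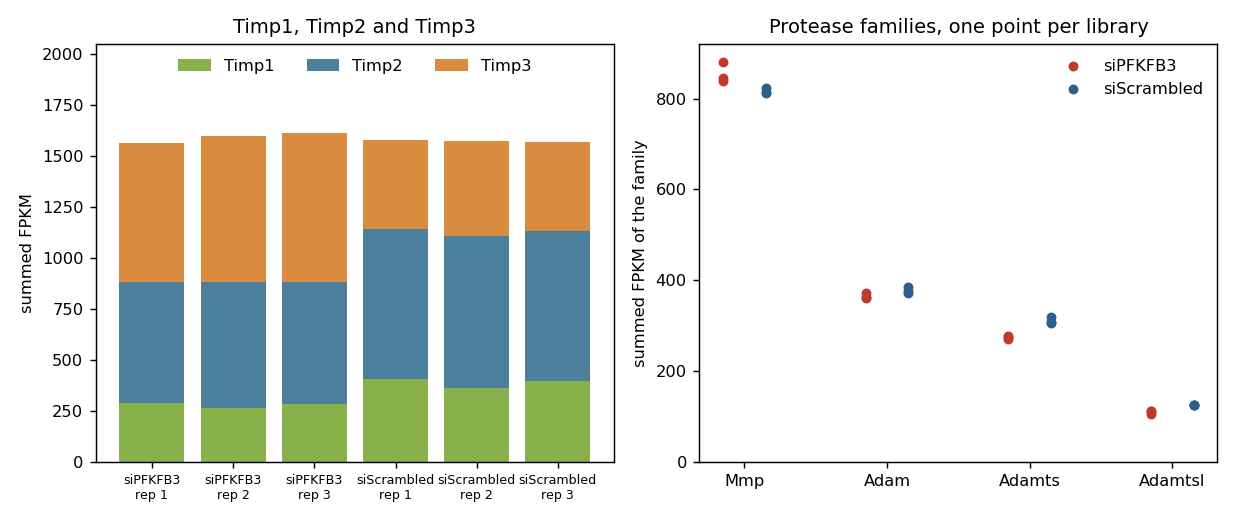
Summed FPKM of each family in the 3 siPFKFB3 and 3 siScrambled libraries, with the make-up of the Timp sum. The Timp sum lies between 1563 and 1614 FPKM in siPFKFB3 cells and between 1571 and 1581 FPKM in siScrambled cells, while its Timp3 share is 43.6 to 45.3% in siPFKFB3 cells and 27.6 to 29.5% in siScrambled cells.

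The promoter ends of the 2 inhibitors that changed most in opposite directions are shown because the genes belong to the same small family. The windows are of RefSeq on GRCm38.p6, from 100 bases before to 50 after the RefSeq start, with GC boxes (GGGCGG, or CCGCCC where it is read on the other strand) in capitals; Timp3 is at chr10:86300312-86300461 and Timp1 at chrX:20870066-20870215, both on the plus strand.
Timp3: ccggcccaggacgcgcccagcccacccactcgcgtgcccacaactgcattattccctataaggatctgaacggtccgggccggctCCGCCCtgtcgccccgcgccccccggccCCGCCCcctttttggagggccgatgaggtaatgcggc
Timp1: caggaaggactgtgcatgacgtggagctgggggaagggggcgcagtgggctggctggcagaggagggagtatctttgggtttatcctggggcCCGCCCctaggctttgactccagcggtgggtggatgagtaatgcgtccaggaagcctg
Neither holds the exact letters of the AP-1 motif TGANTCA or of TATAAA, the core of the TATA box, in its 300 bases. Near matches were not counted. The Timp1 window holds a near match to the AP-1 motif after the GC box, so the search does not show that Timp1 lacks an AP-1 site. Binding there was not tested. GGGCGG occurs in 35.7% of all 32851 RefSeq promoters of that length and in 20 of 26 promoters of tested members (76.9%).

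Few Mmps were called. Of the 10 tested, Mmp14 rose, Mmp19 fell and 8 did not pass the test, with a median log2 change of -0.02. The called share was 20%, against 36.3% of all genes tested. The most abundant pair, Mmp2 and Mmp14, made up most of the family's FPKM. Mmp2 (chromosome 8, 92827291 to 92853420, plus strand), the gelatinase of these cells, was at 334.4, 346.7 and 341.2 FPKM in siPFKFB3 cells, against 339.2, 342.2 and 336.9 FPKM in siScrambled cells. The groups overlapped, and the estimate was near 0 (log2 fold change 0.01 ± 0.03, adjusted p = 0.897). The other gelatinase, Mmp9, was listed at 0 except for 0.0403 and 0.0435 FPKM in 2 knockdown libraries.

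Mmp14 (chromosome 14, 54431612 to 54445364, plus strand), a membrane-bound collagenase and the main activator of the Mmp2 precursor, was at 345.5, 366.3 and 345.7 FPKM in siPFKFB3 cells, against 310.5, 306.2 and 307.8 FPKM in siScrambled cells. Each knockdown library was higher than each control library (log2 fold change 0.19 ± 0.03, adjusted p = 0.00113). Of the genes for the surface complex of Mmp14, Timp2 and the Mmp2 precursor, Mmp14 thus rose, Timp2 fell and Mmp2 was not called. The other membrane-type members tested, Mmp15, Mmp16 and Mmp17, averaged 1.63, 11.04 and 3.84 FPKM in siPFKFB3 cells and 1.43, 10.53 and 3.49 FPKM in siScrambled cells, with overlapping groups.

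Mmp19 was at 16.5, 17.6 and 16.1 FPKM in siPFKFB3 cells, against 20.60, 21.02 and 20.80 FPKM in siScrambled cells, with no overlap (log2 fold change -0.30 ± 0.05, adjusted p = 0.000976). It shares 1001 of 3533 exon bases with genes on the opposite strand. Of these, Tmem198b averaged 8.73 FPKM in siPFKFB3 cells and 8.74 FPKM in siScrambled cells, and whether the counting used strand is not stated in the labels. Mmp28, an Mmp of epithelia and other tissues, was at 2.65, 2.49 and 2.28 FPKM in siPFKFB3 cells and 3.00, 2.81 and 3.12 FPKM in siScrambled cells. These groups did not overlap, yet the test was not passed (adjusted p = 0.0742). Mmp23 and Mmp11 averaged 95.1 and 16.97 FPKM in siPFKFB3 cells, against 98.2 and 17.55 FPKM in siScrambled cells, and overlapped.

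Mmp3, or stromelysin, which cuts proteoglycans and activates other Mmps, had 1 knockdown library on the other side of the controls. It was at 11.3, 14.8 and 11.2 FPKM in siPFKFB3 cells, against 13.4, 12.8 and 13.8 FPKM in siScrambled cells. Replicate 2 of the knockdown lay above all controls and the other two below them (log2 fold change -0.10, adjusted p = 0.451). Without siPFKFB3 replicate 2 the log2 fold change was -0.23 and the test was passed (adjusted p = 0.0175).

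Mmp3 lies in a row of 10 Mmp genes on chromosome 9 (7272514 to 7699585), which holds the interstitial collagenases, the stromelysins Mmp3 and Mmp10 and macrophage elastase. It was the only one of the 10 to reach a mean of 1 FPKM, at 12.9 FPKM over the 6 libraries; Mmp1a, Mmp1b, Mmp7 and Mmp20 were at 0 in all of them. The collagenase Mmp13 was at 0.399, 0.557 and 0.708 FPKM in siPFKFB3 cells, against 0.347, 0.235 and 0.275 FPKM in siScrambled cells. Its groups did not overlap, but it was not tested at this level. The promoters of the row differed in letters from those of the other Mmps: TGANTCA, an AP-1 motif, was in 8 of 10 and in 0 of the 8 other Mmps with a listed promoter, TATAAA in 9 of 10 and in 1 of 8, and GGGCGG in 0 of 10 and in 7 of 8. Each motif was read on both strands, and among all RefSeq promoters TGANTCA is in 7.81% and TATAAA in 13.6%.

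The ends of 3 promoters of this row are shown because only the first is of a gene at an appreciable level here. All are on the plus strand of chromosome 9, as chr9:7445722-7445871 for Mmp3, chr9:7502242-7502391 for Mmp10 and chr9:7272414-7272563 for Mmp13. Capitals mark TGANTCA and, after it, TATAAA, which share no base.
Mmp3: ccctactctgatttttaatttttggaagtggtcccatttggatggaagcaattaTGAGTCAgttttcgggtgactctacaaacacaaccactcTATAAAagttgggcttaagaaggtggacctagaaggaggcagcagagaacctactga
Mmp10: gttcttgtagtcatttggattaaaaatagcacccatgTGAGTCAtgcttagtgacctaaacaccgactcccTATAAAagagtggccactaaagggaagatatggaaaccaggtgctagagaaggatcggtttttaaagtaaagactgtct
Mmp13: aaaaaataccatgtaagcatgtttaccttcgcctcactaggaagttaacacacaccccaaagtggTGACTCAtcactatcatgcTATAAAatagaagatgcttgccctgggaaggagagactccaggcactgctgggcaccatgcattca
The motifs were present in all of them, while the genes averaged 12.9, 0.0240 and 0.420 FPKM over the 6 libraries. A match describes the letters and does not show a bound site.

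Summed over the family, Mmps were at 838, 882 and 845 FPKM in siPFKFB3 cells, against 823, 813 and 815 FPKM in siScrambled cells. The ratio of this sum to the Timp sum was 0.536, 0.551 and 0.524 in siPFKFB3 cells, against 0.521, 0.517 and 0.518 in siScrambled cells. The 2 groups did not overlap, but the difference in means of 0.537 ± 0.0137 and 0.519 ± 0.00197 (SD, n = 3 each) was 0.05 on the log2 scale. Its sign rests on which inhibitors are counted, since it is -0.08 without Timp1, -0.18 without Timp2 and 0.42 without Timp3.

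**Figure D3:**
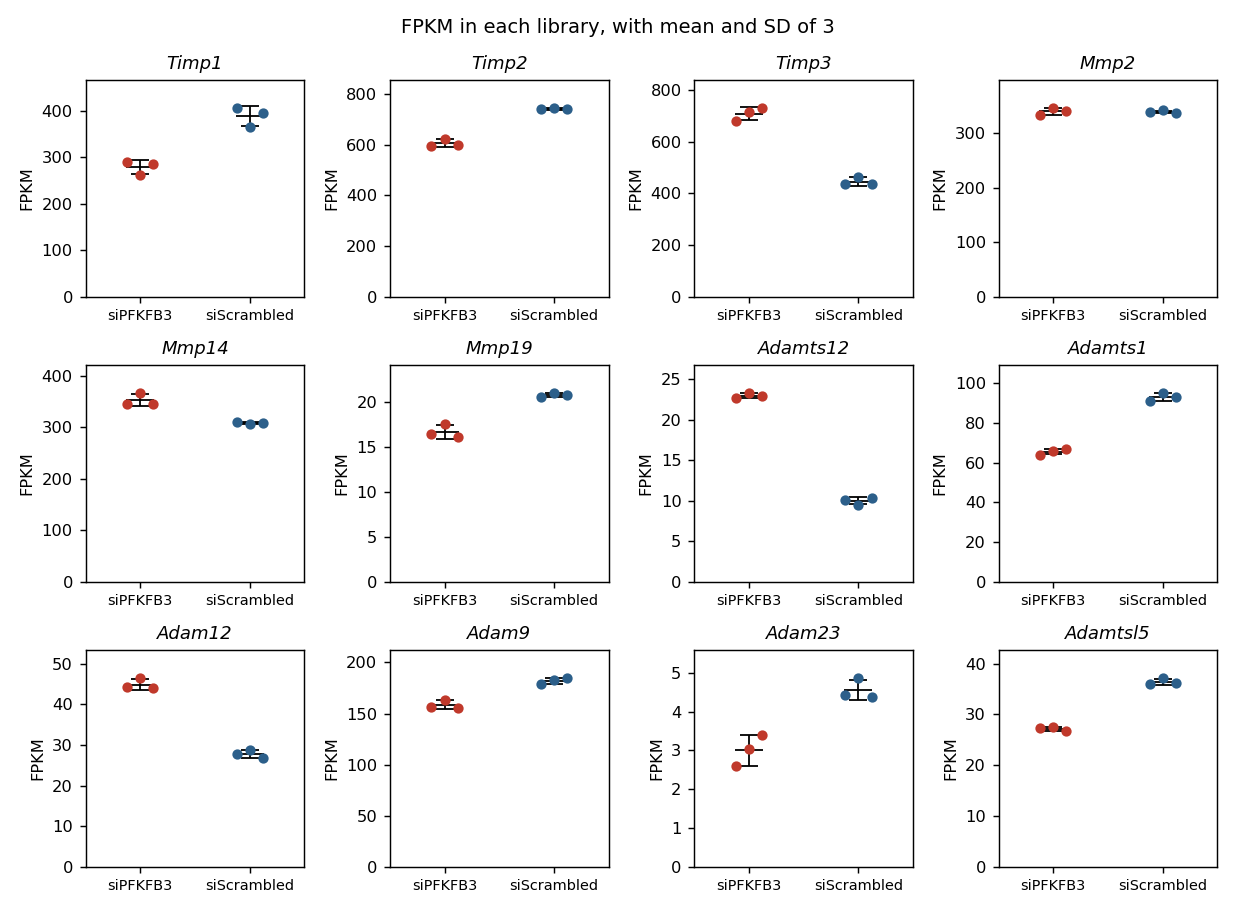
FPKM of 12 members in each library, siPFKFB3 on the left of each panel and siScrambled on the right, with the mean and SD as bars; each axis starts at 0. Timp3, Adam12 and Adamts12 are higher in all 3 siPFKFB3 libraries, whereas the Mmp2 points of the groups overlap.

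Of the Adams, 8 of 33 were tested, of which 2 rose, 3 fell and 3 were not called. Risers made up 25% and fallers 37.5%, against 15.8% and 20.5% of all genes tested. Adam12 (ENSMUSG00000054555, chromosome 7, 133883199 to 134232146, minus strand), a sheddase of growth factor precursors that is also known from myoblast fusion, rose most. It was at 44.3, 46.4 and 43.9 FPKM in siPFKFB3 cells, against 27.7, 28.8 and 26.8 FPKM in siScrambled cells. The groups were far apart, at 162% of the control mean (log2 fold change 0.68 ± 0.04, adjusted p = 4.3e-06). Its close relative Adam19, a sheddase of neuregulins, rose less, with 33.3 ± 0.594 FPKM in siPFKFB3 cells and 28.6 ± 1.04 FPKM in siScrambled cells (SD, n = 3 each; log2 fold change 0.21 ± 0.04, adjusted p = 0.00358).

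The most abundant Adam fell. Adam9 (chromosome 8, 24949611 to 25016927, minus strand), a broadly expressed sheddase, was at 156.7, 163.5 and 155.4 FPKM in siPFKFB3 cells, against 178.9, 183.3 and 184.5 FPKM in siScrambled cells, without overlap (log2 fold change -0.20 ± 0.03, adjusted p = 0.000997). Adam23, which lacks an active site and binds integrins, was at 2.59, 3.03 and 3.39 FPKM in siPFKFB3 cells, against 4.42, 4.86 and 4.38 FPKM in siScrambled cells. Its groups did not overlap either (log2 fold change -0.48 ± 0.09, adjusted p = 0.00226).

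Adam10 and Adam17, the main sheddases of Notch receptors and of tumour necrosis factor, differed by no more than 0.14 on the log2 scale. Adam17 was at 18.4, 18.5 and 18.4 FPKM in siPFKFB3 cells, against 20.5, 21.2 and 19.6 FPKM in siScrambled cells (log2 fold change -0.14 ± 0.05, adjusted p = 0.0385). That call was lost in 10 of 16 other settings (adjusted p = 0.0528 to 0.09995), including each omission of a siPFKFB3 library and those of siScrambled replicates 1 and 2. Adam17 also shares 311 of 7154 exon bases with Iah1 on the opposite strand. Iah1 averaged 24.0 FPKM in siPFKFB3 cells and 27.7 FPKM in siScrambled cells, and the part of this overlap was not tested. Adam10 averaged 48.2 FPKM in siPFKFB3 cells and 51.6 FPKM in siScrambled cells, and Adam15 averaged 55.2 FPKM in siPFKFB3 cells and 58.8 FPKM in siScrambled cells; neither passed the test (adjusted p = 0.155 and 0.108). Adam5, otherwise known from testis, averaged 1.38 FPKM in siPFKFB3 cells and 1.64 FPKM in siScrambled cells and was not called (adjusted p = 0.207).

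Of the Adamts genes, 11 of 19 were tested, of which 1 rose, 5 fell and 5 were not called. Risers made up 9.09% and fallers 45.5%, against 15.8% and 20.5% of all genes tested. Adamts12 (ENSMUSG00000047497, chromosome 15, 11064790 to 11349231, plus strand), a protease that cuts cartilage oligomeric matrix protein (Comp), had the largest change of all members. It was at 22.7, 23.3 and 22.9 FPKM in siPFKFB3 cells, against 10.1, 9.51 and 10.3 FPKM in siScrambled cells. Its mean was 2.30 times the control mean (log2 fold change 1.13 ± 0.05, adjusted p = 6.83e-07), which ranked 58 of 11240 by absolute change. Adamts7, the relative that also cuts Comp, averaged 2.01 FPKM in siPFKFB3 cells and 2.12 FPKM in siScrambled cells, with overlapping groups (adjusted p = 0.679).

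The aggrecan- and versican-cutting members, often called hyalectanases, fell or were not called: of 5 tested, Adamts1, Adamts5 and Adamts15 fell and Adamts4 and Adamts9 did not pass the test. Fallers thus made up 60%, against 20.5% of all genes tested. Adamts8 and Adamts20, also of this group, were below the level tested. Adamts1 (ENSMUSG00000022893, chromosome 16, 85793827 to 85803113, minus strand) was at 64.0, 65.8 and 66.7 FPKM in siPFKFB3 cells, against 91.2, 95.1 and 93.3 FPKM in siScrambled cells. The groups were far apart relative to their spread, at 70.3% of the control mean (log2 fold change -0.50 ± 0.03, adjusted p = 5.51e-06). Adamts5, its neighbour on the same strand at a gap of 53059 bases, was at 57.9, 57.1 and 58.6 FPKM in siPFKFB3 cells, against 65.8, 70.5 and 65.5 FPKM in siScrambled cells (log2 fold change -0.21 ± 0.04, adjusted p = 0.00221). Adamts15 averaged 3.31 ± 0.154 FPKM in siPFKFB3 cells and 4.67 ± 0.229 FPKM in siScrambled cells (SD, n = 3 each; log2 fold change -0.40 ± 0.07, adjusted p = 0.00157). For these genes each knockdown library was below each control library. Adamts4 averaged 6.81 FPKM in siPFKFB3 cells and 7.74 FPKM in siScrambled cells (adjusted p = 0.0898, and 0.0359 without siScrambled replicate 3), and Adamts9 averaged 2.51 FPKM in siPFKFB3 cells and 2.09 FPKM in siScrambled cells (adjusted p = 0.134).

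The promoter ends of the riser and the faller at the extremes of the Adamts family are given for comparison, on GRCm38.p6 of RefSeq, as chr15:11064673-11064822 on the plus strand for Adamts12 and chr16:85803064-85803213 on the minus strand for Adamts1. Capitals mark TATAAA and GGGCGG, which share no base.
Adamts12: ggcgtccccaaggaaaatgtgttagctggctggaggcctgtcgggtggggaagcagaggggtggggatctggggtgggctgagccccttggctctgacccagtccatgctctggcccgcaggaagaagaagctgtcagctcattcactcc
Adamts1: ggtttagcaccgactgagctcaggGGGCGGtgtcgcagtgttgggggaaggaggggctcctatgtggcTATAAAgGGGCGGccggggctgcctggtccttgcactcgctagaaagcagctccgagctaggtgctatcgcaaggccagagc
Adamts1 had a TATAAA run just before a GC box, whereas the Adamts12 promoter held none of the motifs searched in its 300 bases. Among 26 promoters of tested members, TATAAA was in 3 (11.5%) and GGGCGG in 20 (76.9%). Those 3 belong to Adamts1, which fell, Adamtsl2, which rose and also held GGGCGG, and Mmp3, which was not called.

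Of the 3 procollagen N-proteinases, which trim the ends of fibrillar procollagens, 2 were tested and fell. Over all genes tested, 20.5% fell. Adamts3, the other one, averaged 0.133 FPKM in siPFKFB3 cells and 0.185 FPKM in siScrambled cells and was below the level tested. Adamts2 was at 89.98, 92.91 and 92.73 FPKM in siPFKFB3 cells, against 99.94, 103.9 and 100.3 FPKM in siScrambled cells (log2 fold change -0.14 ± 0.03, adjusted p = 0.00789). Adamts14 was at 2.43, 2.97 and 2.95 FPKM in siPFKFB3 cells, against 3.29, 3.52 and 3.57 FPKM in siScrambled cells (log2 fold change -0.24 ± 0.08, adjusted p = 0.0435). Neither pair of groups overlapped, but the Adamts14 call was lost in 9 of 15 other settings (adjusted p = 0.0532 to 0.142), including the omission of siPFKFB3 replicate 1 or 3 or of any siScrambled library.

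Adamts6, a relative of the fibrillin-linked Adamts10, was at 1.67, 1.28 and 1.69 FPKM in siPFKFB3 cells, against 1.21, 1.19 and 0.914 FPKM in siScrambled cells. The groups did not overlap, yet the test was not passed (adjusted p = 0.0662, and 0.0362 without siPFKFB3 replicate 2). Adamts10 averaged 16.9 FPKM in siPFKFB3 cells and 17.7 FPKM in siScrambled cells (adjusted p = 0.384).

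The Adamts-like proteins have no protease domain, and some are matrix components that bind fibrillin. Of 4 tested, 1 rose and 1 fell (25% each, against 15.8% and 20.5% of all genes tested). Adamtsl5 was at 27.3, 27.4 and 26.7 FPKM in siPFKFB3 cells, against 35.9, 37.1 and 36.2 FPKM in siScrambled cells, a tight separation (log2 fold change -0.41 ± 0.04, adjusted p = 3.79e-05). Adamtsl2, known for a part in transforming growth factor beta signalling, was at 3.00, 3.41 and 3.26 FPKM in siPFKFB3 cells, against 2.57, 2.11 and 2.43 FPKM in siScrambled cells, again apart (log2 fold change 0.33 ± 0.08, adjusted p = 0.0115). Adamtsl3 and Adamtsl4 averaged 55.9 and 21.95 FPKM in siPFKFB3 cells and 60.5 and 24.5 FPKM in siScrambled cells. Their groups did not overlap, and neither passed the test (adjusted p = 0.0501 and 0.0780; without siPFKFB3 replicate 3 Adamtsl4 was at 0.0489).

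Summed over a family, Adamts genes were at 271, 276 and 277 FPKM in siPFKFB3 cells, against 306, 319 and 309 FPKM in siScrambled cells, without overlap. Adamtsl sums were at 104, 111 and 111 FPKM in siPFKFB3 cells, against 124, 125 and 124 FPKM in siScrambled cells, also without overlap. Adam sums were at 360, 372 and 364 FPKM in siPFKFB3 cells, against 371, 384 and 377 FPKM in siScrambled cells, and overlapped by 1 library. The abundant Adamts1, Adamts2 and Adamts5 fell, and the rise of Adamts12 was smaller in FPKM than their combined fall.

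**Figure D4:**
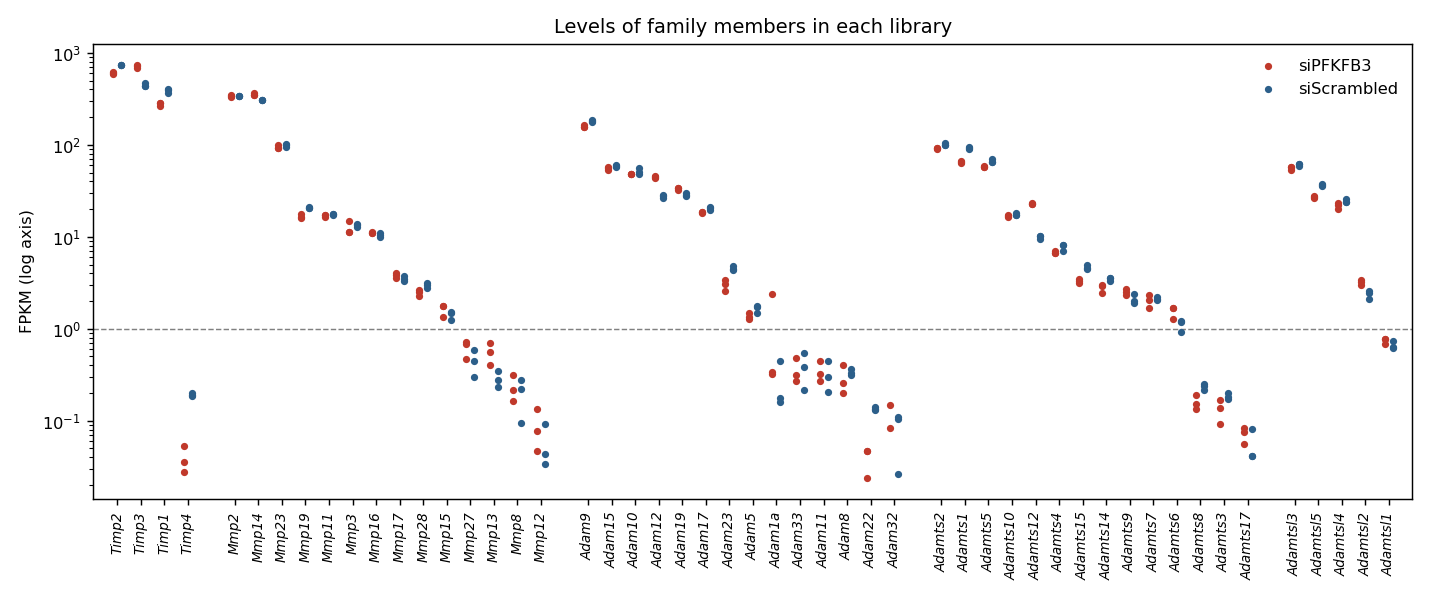
FPKM on a log axis of the 51 members with a mean of at least 0.05 FPKM, by family; each point is a library, siPFKFB3 drawn left of siScrambled, and 1 value of 0 (Adam32) is not drawn. The dashed line marks 1 FPKM. Timp2, Timp3, Timp1, Mmp2 and Mmp14 stand at the top, up to 744.1 FPKM for Timp2 in a siScrambled library.

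The 48 members that were not tested had a mean below 1 FPKM. Of these, 24 were at 0 in all libraries (17 Adams, 4 Mmps and 3 Adamts genes), and 24 were detected below that mean. Among the detected ones, 5 reached 0.5 FPKM in some library: Adamtsl1, Adam1a, Mmp27, Mmp13 and Adam33. Adamtsl1, just under the filter, averaged 0.747 FPKM in siPFKFB3 cells and 0.664 FPKM in siScrambled cells. Adam1a, a testis gene, was at 0.320, 0.337 and 2.41 FPKM in siPFKFB3 cells, against 0.179, 0.445 and 0.159 FPKM in siScrambled cells. Its single high library is uncertain, since 7432 of its 7508 exon bases are shared with other genes, among them Mapkapk5 on the same strand, which averaged 9.61 FPKM in siPFKFB3 cells and 10.5 FPKM in siScrambled cells. Mmp27 averaged 0.621 FPKM in siPFKFB3 cells and 0.445 FPKM in siScrambled cells, and Adam33, a gene linked to asthma in humans, averaged 0.359 FPKM in siPFKFB3 cells and 0.381 FPKM in siScrambled cells.

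The 19 others stayed at or below 0.450 FPKM in each library. In 6 of the 24 detected members, or 25%, the groups did not overlap, against 13.4% of all 7126 rows above 0 with a mean under 1 FPKM. Timp4, Adam22, Adam4, Adamts8 and Adamts3 were lower in each siPFKFB3 library, and Mmp13 was higher. Adam22, a relative of Adam23 that also lacks an active site, was at 0.0475, 0.0474 and 0.0237 FPKM in siPFKFB3 cells, against 0.130, 0.142 and 0.134 FPKM in siScrambled cells; with no filter on level its adjusted p was 0.0245. At such levels an FPKM value rests on few fragments.

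The 3′ untranslated regions were read for 4 heptamers, and none of the 4 was common to all 3 members that rose most. An earlier search of these same fold changes had singled out the 4, so what follows is a description. Over 10848 tested genes with a 3′ untranslated region in GENCODE M21, at least 1 of CGGAGAA, its shifted form TCGGAGA, and the further heptamer TGTCACG was present in 746 (6.88%), and 30.6% of these carriers rose and 11.7% fell. Of all genes tested, 15.8% rose and 20.5% fell. Among the 36 tested members 4 (11.1%) carried at least 1 of these heptamers, namely Adamts12, Timp3, Adam12 and Adamts9. The first 3 rose and Adamts9 was not called. In that order, their 3′ untranslated regions were 3554, 3604, 4743 and 1883 bases long. Tested members without any of these heptamers ranged from 54 bases in Mmp23 to 6437 bases in Adamts5. Length was not matched in these counts. Only sites of the 3 that rose are shown, in GRCm38 transcripts with the heptamer in capitals. They are on chromosome 15 for Adamts12, 10 for Timp3 and 7 for Adam12. The Adamts9 site and the sites of GAAGAAC are not printed.
Adamts12: ataccagaaatCGGAGAAaatacacattt
Timp3: aagttacatcaTCGGAGAgcggtttttga
Adam12: gatagagccgaTGTCACGtggctttcctt
The Adamts12 site holds CGGAGAA and, shifted by 1 base, TCGGAGA, which it shares with Timp3. The heptamer GAAGAAC was present in 1186 genes (10.9%), of which 33.5% fell and 11.3% rose. It was present in 7 members: Adamts12 and Adam12, which rose, Adam23 and Adam17, which fell, and Adam10, Mmp15 and Mmp17, which were not called. Without all carriers of any of the 4, a choice made after seeing the data, 3 members rose and 10 fell. Because the 4 were picked from these same fold changes, that count cannot show a part of the sites. The sequence of the interfering RNA is not in the labels used here, and the part of these sites in the changes was not tested.

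Genes around the proteases were read from lists, which were chosen with earlier results of these data known. Of 25 activators and cell-surface regulators of the proteases, 20 were tested, 7 rose and 7 fell. That was 35% in each direction, while 15.8% of all genes tested rose and 20.5% fell. Plat, the tissue plasminogen activator, which starts the plasmin cascade that activates several Mmps, averaged 9.10 ± 0.921 FPKM in siPFKFB3 cells and 22.2 ± 1.13 FPKM in siScrambled cells (SD, n = 3 each; log2 fold change -1.20, adjusted p = 2.87e-06). Each Plat value in siPFKFB3 cells was below those in siScrambled cells. The proteoglycan Sdc1 fell and the proprotein convertase Pcsk5 rose (log2 fold change -0.73 and 0.56), and Thbs1, the most abundant gene of the list, rose by 0.32.

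Of 15 partners of Adam10 and Adam17, 12 were tested, 1 rose and 8 fell, with a median log2 change of -0.31 against -0.02 over all genes. Partners that rose made up 8.33% and those that fell 66.7%, against 15.8% and 20.5% of all genes tested. Itga5, an integrin that binds Adam17, averaged 29.9 ± 0.464 FPKM in siPFKFB3 cells and 57.7 ± 1.73 FPKM in siScrambled cells (SD, n = 3 each; log2 fold change -0.93, adjusted p = 5.87e-07). The tetraspanins Tspan5 and Tspan17, which guide Adam10 to the cell surface, fell by 0.58 and 0.48, and Rhbdf1, a rhomboid protein that guides Adam17, fell by 0.47. Itgb1 was the 1 partner that rose (0.22). Of the sheddases they serve, Adam17 fell by 0.14 and Adam10 was not called.

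Of 25 proteins known to be shed by Adams, 21 were tested, 3 rose (14.3%) and 9 fell (42.9%), against 15.8% and 20.5% of all genes tested. The growth factor precursor Nrg1 averaged 5.68 ± 1.02 FPKM in siPFKFB3 cells and 2.59 ± 0.201 FPKM in siScrambled cells (SD, n = 3 each; log2 fold change 0.89, adjusted p = 0.00018), and the adhesion molecule Vcam1 averaged 127 ± 2.98 FPKM in siPFKFB3 cells and 212 ± 5.58 FPKM in siScrambled cells (log2 fold change -0.73, adjusted p = 7.9e-07). Pcdh1 and Ereg fell by 0.48 and 0.42, and App, the most abundant, fell by 0.09.

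Of 20 matrix substrates, 19 were tested, 6 rose (31.6%) and 8 fell (42.1%), against 15.8% and 20.5% of all genes tested. Col2a1, the collagen of cartilage, rose most, at 158 ± 12.9 FPKM in siPFKFB3 cells and 56.0 ± 3.71 FPKM in siScrambled cells (SD, n = 3 each; log2 fold change 1.48, adjusted p = 2.31e-06). The proteoglycans cut by Adamts1 and Adamts5 both rose: Acan averaged 14.7 ± 0.809 FPKM in siPFKFB3 cells and 9.503 ± 0.660 FPKM in siScrambled cells (adjusted p = 0.00011), and Vcan averaged 14.9 ± 0.939 FPKM in siPFKFB3 cells and 11.1 ± 0.382 FPKM in siScrambled cells (adjusted p = 0.000723). The laminin chain Lamc1 fell by 0.41, and elastin (Eln), the most abundant, rose by 0.36. Acan and Col2a1 are also among the chondrocyte markers whose summed level was 199 to 227 FPKM in siPFKFB3 cells and 101 to 107 FPKM in siScrambled cells.

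A list of 9 further genes held zinc proteases of the astacin and pappalysin families together with Papln and Thsd4, which are not of these families. Of the 9, 3 were tested. Pappa, which cuts binding proteins of insulin-like growth factors, rose by 0.57, Bmp1, which trims the other end of procollagens, fell by 0.18, and the remaining one was not called. All 18 listed regulators of Mmp transcription were tested, from the AP-1, NF-kB and Ets groups and, outside these groups, Runx1, Runx2 and Sp1. Of the 18, 2 rose (11.1%) and 8 fell (44.4%), against 15.8% and 20.5% of all genes tested. The AP-1 subunits Jun and Jund averaged 15.8 ± 0.582 and 40.5 ± 2.74 FPKM in siPFKFB3 cells and 23.8 ± 0.613 and 52.2 ± 2.54 FPKM in siScrambled cells (SD, n = 3 each; adjusted p = 1.98e-05 and 0.000808). Runx1 rose by 0.37 and Etv5 fell by 0.35. The count that rose was 1 without siPFKFB3 replicate 1, siPFKFB3 replicate 2 or siScrambled replicate 2.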

How the data were processed

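The authors deposited 1 table of FPKM values per gene for the 6 libraries, and the tests start from it. Per the labels' protocols, total RNA was taken with TRIzol and libraries were made with an mRNA kit. HISAT2 and the build GRCm38 (mm10) are named in the submitters' processing notes; neither a counting tool, its use of strand nor an annotation was given in those notes or labels. The 24970 rows hold 22036 Ensembl genes and 2934 new genes. Low values did not show whole-read steps, so sequencing depth stays unknown and no interval that needs counts is given.

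The 11240 genes whose mean reached 1 FPKM were fitted with limma 3.58.1 (trend and robust options; R 4.3.3) on log2(FPKM + 1), siPFKFB3 against siScrambled, two-sided, with Benjamini-Hochberg adjustment over all of them and a threshold of 0.05. The script was tested on simulated data. Replicate numbers did not pair the libraries and no block was used. Members were taken by gene symbol and not by their values. The families, lists and markers were set with earlier results of these data known, and no test over a list was run. The text names each tested member, untested members that reach 0.5 FPKM in a library, and in each list up to 4 called genes with the largest change and the most abundant gene, except 1 gene that is not reported here; Timp4, Adam22, Mmp9 and other genes named for a role were added after their values were seen. Gene positions and 3′ untranslated regions are from GENCODE M21, promoters from RefSeq, where 53 of 84 members matched (23 of 36 tested). No protein sequences were used here. Exons of 10 tested members overlap a gene on the opposite strand. Alternatives changed the pseudocount, the filter, the scaling, the limma options, the block and the libraries included.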

Additional observations from a re-analysis of the deposited data

How the results depend on the processing

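In each of 16 alternative settings the number of genes called was 3274 to 4148 (4079 as reported) and the number of members called 15 to 19 (18 as reported). The balance of directions over all genes moved with the scaling. As reported, 43.5% of the called genes were higher. The share was 48.9% after rescaling to equal sums (TPM), 48.7% with trimmed means of log ratios (TMM) and 49.3% with quantile normalization. The 15.8% that rose and 20.5% that fell therefore hold for FPKM without further scaling. Of the 18 called members, 16 kept their direction and call in every setting that tested them; the exceptions were Adam17 and Adamts14. The replicate numbers do not pair the libraries (correlations of deviations of -0.114, 0.0598 and 0.055 for equal numbers); with a replicate block 3907 genes and 18 members were called, 17 of these also without it. Some results moved. The ratio of Mmps to Timps, 0.05 on the log2 scale, was -0.081 without Timp1 (chosen after seeing the data), -0.18 without Timp2, 0.42 without Timp3 and 0.091 without Mmp2. Members that rose numbered 3 without carriers of the 4 heptamers, which had been picked from these same fold changes. In the list that holds the astacin and pappalysin genes, 2 rose with no filter. Transcription regulators of Mmp genes that rose numbered 1 to 2 when 1 library was left out. The direction turned for 2 uncalled members, Adamts7 at 0.0235 without siPFKFB3 replicate 1 (-0.124 to 0.0235 over single omissions) and Mmp2 at -0.00714 without siPFKFB3 replicate 2 (-0.00714 to 0.019). Beside those given in the report, calls were gained for Mmp28 (adjusted p = 0.0354) and Adamts6 (0.0475) without limma's trend and robust options, for Adamtsl3 (0.0445) at a minimum of 5 FPKM and for Adamtsl4 (0.0436) with the replicate block. Except where a setting holds fewer samples or genes, the cause was not tested. The unknown depth limits what can be said of members below 1 FPKM.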

Other observations

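Some neighbouring family genes differed widely in level and others did not. On chromosome 8, Adam18, Adam3, Adam5, Adam32 and Adam9 follow each other on the minus strand, with gaps of 2469, 1240, 11770 and 806 bases. Adam9, at the end of this row, averaged 159 FPKM in siPFKFB3 cells and 182 FPKM in siScrambled cells, whereas Adam32, next to it, averaged 0.0775 FPKM in siPFKFB3 cells and 0.0800 FPKM in siScrambled cells. On chromosome 9, Adamts15 and Adamts8 lie 20109 bases apart on opposite strands; Adamts15 averaged 3.31 FPKM in siPFKFB3 cells and 4.67 FPKM in siScrambled cells, and Adamts8 averaged 0.159 FPKM in siPFKFB3 cells and 0.235 FPKM in siScrambled cells. By contrast, the neighbours Adamts1 and Adamts5 averaged 65.5 and 57.9 FPKM in siPFKFB3 cells and 93.2 and 67.2 FPKM in siScrambled cells, and Adam24, Adam25, Adam20 and Adam39, which follow each other on chromosome 8, were at 0 in all libraries. Adamts15 and Adamts8 were lower in each siPFKFB3 library, but Adamts8 was below the level tested.

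The median coefficient of variation between replicates over the tested members was 3.67% in siPFKFB3 cells and 4.06% in siScrambled cells, and over all genes tested it was 5.36% in siPFKFB3 cells and 5.50% in siScrambled cells. Some members varied more, such as Mmp3 at 16.7% and Mmp15 at 15.6% in siPFKFB3 cells. Levels were not matched in this comparison.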
